A study of Mus musculus with 4 samples.

Results

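The cytoplasmic mRNA decay machinery was followed in mouse hematopoietic stem cells of 2 genotypes, wild type and Dis3-/-. A list of 43 genes chosen by name was used. It held the SKI complex and Hbs1l (4 genes), CCR4-NOT (11), PAN and Parn (3) and proteins that bring deadenylases to a message (4). It also held decapping and Xrn1 (11), and nonsense-mediated decay with translation termination (10). Each symbol had a row in both deposited tables, so the 43 genes were members of 24411 genes in all. All 43 passed the filter on low counts that left 12244 tested genes, with 50 to 8707 expected counts (counts estimated per gene) in a library. The wild-type group was Dis3fl/fl without a Cre transgene and the Dis3-/- group was Dis3fl/fl;Mx-Cre, both on a C57BL/6 background and both with floxed Dis3 alleles. Hosts of the CD45.1 type received this marrow after lethal irradiation, and 4 weeks later 300 µg of pIpC was injected on days 0 and 2. pIpC mimics viral RNA and drives an interferon response, and the Mx promoter in front of Cre responds to interferon. The protocol text gives the injections for both genotypes together, so both groups carry that exposure as far as the labels tell. On day 4 stem cells were sorted as L-ESLAM cells (EPCR+, CD150+, CD48- and without lineage markers), 100 to a library, with 2 libraries per genotype. No donor marker is named for that sort, and the sources used here do not give the age of the mice. The design text gives 2 mice per genotype, and p-values measure the spread between these libraries.

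Most mRNAs are degraded in the cytoplasm by way of their tails. The PAN complex (Pan2 with Pan3) and CCR4-NOT shorten the poly(A) tail, after which Dcp2 and its activators remove the cap and Xrn1 digests the body from the 5′ end, or the exosome digests it from the 3′ end with the SKI complex as its feeder. Nonsense-mediated decay (NMD), led by the helicase Upf1, uses the same enzymes on messages whose translation ends too early. Dis3 is an exosome nuclease known mainly from the nucleus, while the cytoplasmic exosome is known to work with Dis3l.

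Library totals ran from 6085367 to 6818535 expected counts. Dis3 stood at 55.9 and 53.2 CPM (counts per 1000000, on library sizes scaled by the TMM method) in the wild-type and 23.6 and 30.2 CPM in the Dis3-/- libraries, a log2 fold change of -1.02 ± 0.14 (SE, as in all log2 fold changes given so; edgeR p adjusted by Benjamini-Hochberg (BH) over all tested genes = 2.58e-04), in the direction of the labels. Which exons are floxed the sources used here do not give, and reads from outside them are counted too. Dis3-/- names the genotype, and the loss of Dis3 protein was not tested. All 10 stem cell marker genes had reads, among them those of the sort proteins EPCR (Procr) and CD150 (Slamf1). Their summed level was 3170 and 2810 CPM in wild-type against 2250 and 2210 CPM in Dis3-/- libraries, with Hlf, Fgd5 and Kit among the genes called lower and Ly6a called higher. Of the marker lists of other cells, 3 of 7 erythroid genes (Hba-a2, Hbb-bs, Car1), 2 of 5 B cell genes (Ebf1, Ms4a1) and 2 of 5 T and NK cell genes (Cd3e, Cd3g) were at 0 counts in all libraries. Other genes of these lists had reads. Summed erythroid markers lay at 27.7 and 29.9 CPM in wild-type against 44.6 and 32.4 CPM in Dis3-/- libraries. B cell markers lay at 14.8 and 16.2 against 11.8 and 13.9 CPM. T and NK cell markers lay at 61.5 and 86.7 against 83.7 and 64.3 CPM. Monocyte markers, the highest sum of other cells, lay at 184 and 198 against 181 and 170 CPM. Most of these sums came from Hbb-bt, Cd79b, Nkg7 and Lyz2, in this order. Summed granulocyte markers lay between 3.03 and 4.92 CPM in both genotypes. Summed endothelial markers lay at 130 and 136 CPM in the wild-type against 91.4 and 82.4 CPM in the Dis3-/- libraries. Megakaryocyte markers lay at 61.8 and 79.7 against 66.0 and 34.9 CPM, and no gene of either list was at 0 in all 4 libraries. Pecam1, of the endothelial list, was the only gene of these other lists that was called, and it was lower. Most of the endothelial sum came from Pecam1 (110 and 112 against 74.7 and 65.1 CPM). Cdh5, of the same list, had 1 and 1 counts in wild-type against 2 and 0 in Dis3-/- libraries, and was not tested. The endothelial sum is thus mainly a reading of Pecam1. The part of other cells in the results was not tested.

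In Dis3-/- stem cells 12 of the 43 decay genes changed, 6 of them upward and 6 downward. The 6 higher genes were Wdr61, Rqcd1, Upf1, Dcp2, Gspt1 and Smg5. The 6 lower genes were Tob2, Pan3, Cnot6l, Pnrc1, Smg6 and Zfp36l2. Their log2 fold changes spanned 0.30 to 0.63 upward and -0.42 to -0.20 downward, and 0 of the 43 genes reached a size of 1. The test was edgeR's quasi-likelihood test with BH adjustment over all 12244 genes and a threshold of 0.05. It called 23.0% of all tested genes, 12.7% higher and 10.2% lower, so the 27.9% of members called (14.0% in each direction) lay near the background. Called genes with a size of at least 1 made up 4.28% of all tested genes. The members' median log2 fold change was -0.042, against -0.003 for all tested genes, and 39.5% of members lay above 0, against 49.7% of all tested genes. Between genotypes the CPM of 13 members did not overlap upward and that of 12 downward, where 31.9% and 30.5% of all tested genes did the same. In these libraries of pooled cells, fewer cells of a type and less RNA per cell cannot be told apart.

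**Figure D1:**
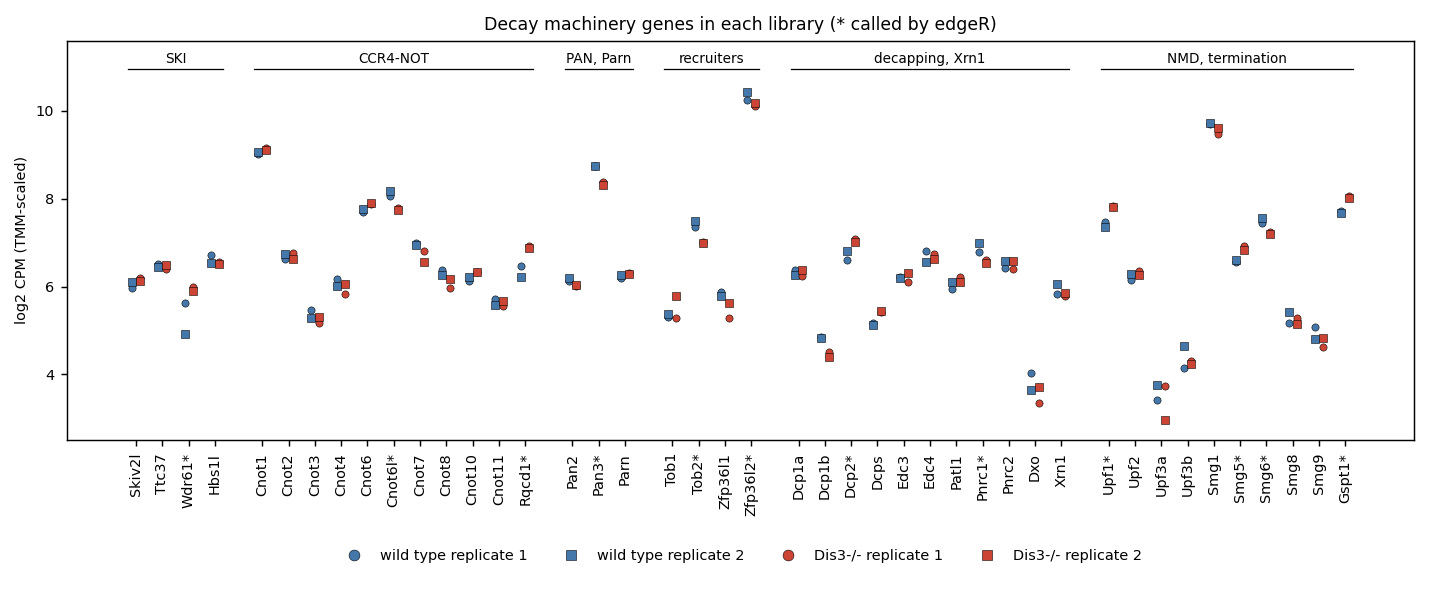
Level of each of the 43 decay genes in each library, as log2 CPM on TMM-scaled library sizes (vertical axis), grouped by complex along the horizontal axis; blue points are the 2 wild-type and red points the 2 Dis3-/- libraries, circles replicate 1 and squares replicate 2, and asterisks mark the 12 genes edgeR called. CPM is not scaled by gene length, so heights compare libraries within a gene; most genes' 4 libraries sit close together, and those of Wdr61, Upf3a and Dxo are spread more widely.

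**Figure D2:**
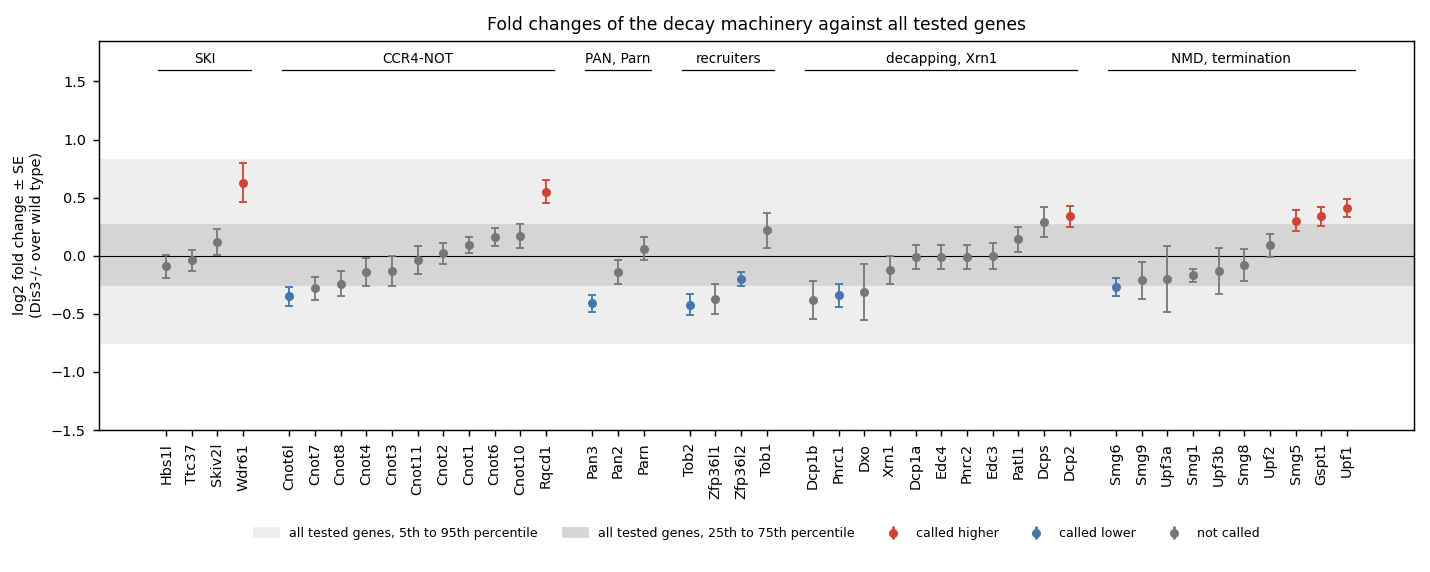
Log2 fold change of each decay gene (Dis3-/- over wild type, points) with its SE (bars), grouped by complex; red points were called higher, blue points lower and grey points not called, and the grey bands give the middle ranges of all 12244 tested genes (25th to 75th percentile, -0.252 to 0.265, and 5th to 95th, -0.755 to 0.827). Every member lies inside the wider band, and the 12 coloured points are those called.

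Rqcd1, Upf1 and Gspt1 were the 3 higher genes with the smallest p, and Pan3 the lower gene with the smallest p. Promoter sequences are shown for these 4 of the 12 called genes, so that both directions appear. They are RefSeq windows on GRCm38.p6 (the mm10 assembly), 300 bases from 250 before to 50 after the start, 5′ to 3′ on the gene's strand. Capitals mark matches on either strand to 5 motifs: CCGGAAG for ETS factors, GCGCATGCG for NRF1, AAGATGGCG for YY1, TTTCCCGC or TTTGGCGC for E2F and TGACGTCA for the cyclic AMP response element. Matches of different motifs were counted separately where they overlap.
Rqcd1 (chr1:74505810-74506109, plus strand): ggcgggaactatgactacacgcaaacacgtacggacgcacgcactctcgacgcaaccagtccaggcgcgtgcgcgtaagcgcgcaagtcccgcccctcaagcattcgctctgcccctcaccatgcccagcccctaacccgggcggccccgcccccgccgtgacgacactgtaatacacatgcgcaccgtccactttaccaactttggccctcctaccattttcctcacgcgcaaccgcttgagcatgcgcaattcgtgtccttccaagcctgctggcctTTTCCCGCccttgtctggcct
Upf1 (chr8:70353230-70353529, minus strand): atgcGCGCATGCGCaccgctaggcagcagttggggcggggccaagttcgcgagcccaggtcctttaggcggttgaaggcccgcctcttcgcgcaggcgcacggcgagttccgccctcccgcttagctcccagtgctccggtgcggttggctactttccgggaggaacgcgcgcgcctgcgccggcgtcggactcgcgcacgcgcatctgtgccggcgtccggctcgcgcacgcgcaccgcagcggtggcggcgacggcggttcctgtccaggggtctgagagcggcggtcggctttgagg
Gspt1 (chr16:11254276-11254575, minus strand): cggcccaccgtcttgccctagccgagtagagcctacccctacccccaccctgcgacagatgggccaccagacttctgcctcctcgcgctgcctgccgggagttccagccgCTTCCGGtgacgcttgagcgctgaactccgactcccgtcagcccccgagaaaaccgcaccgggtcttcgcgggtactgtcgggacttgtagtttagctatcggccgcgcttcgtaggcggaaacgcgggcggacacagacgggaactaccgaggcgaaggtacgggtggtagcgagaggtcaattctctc
Pan3 (chr5:147429906-147430205, plus strand): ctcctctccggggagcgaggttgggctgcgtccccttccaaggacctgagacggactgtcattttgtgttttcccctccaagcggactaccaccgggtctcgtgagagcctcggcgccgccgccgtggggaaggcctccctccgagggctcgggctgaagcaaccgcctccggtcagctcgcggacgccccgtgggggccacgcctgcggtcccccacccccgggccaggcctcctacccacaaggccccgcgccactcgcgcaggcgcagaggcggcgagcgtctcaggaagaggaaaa
The Rqcd1 window (listed in RefSeq as Cnot9) held the E2F letters TTTCCCGC, the Upf1 window the NRF1 letters and the Gspt1 window the ETS letters on its other strand, while the Pan3 window held none of the 5 motifs.

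Promoter windows were matched for 36 of the 43 genes, 42 windows in all, with more than 1 window for 3 genes. The ETS letters stood in a window of 9 of these 36 genes (12.9% of 17492 protein-coding genes of the RefSeq table), 1 of 4 higher genes and 1 of 5 lower genes among them. NRF1 letters were found for 4 genes, Upf1, Hbs1l, Smg9 and Ttc37 (2.61% of coding genes), and YY1 letters for 3, Cnot3, Dcp1b and Upf3b (2.14%). E2F letters were found for Rqcd1, Cnot11 and Patl1 (2.31%), and the cyclic AMP response element for 0 of 36 (2.54%). CCAAT, bound by NFY and too short to mark, stood in a window of 15 of 36 (42.3% of coding genes). The median GC content of member windows was 62.8%, against 56.3% over all coding windows. Of the 5 lower genes with a window 0 held the NRF1, YY1 or E2F letters, and of the 4 higher genes 1, 0 and 1. Letters found in 2.14% to 2.61% of coding genes are too rare for so few genes to show a contrast of directions. These are letter matches in short windows and say nothing of factors bound there.

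Of the 4 genes of the SKI group 1 rose (25%, beside 12.7% of all tested genes) and 0 fell (beside 10.2%). The median log2 fold change was 0.039. Skiv2l encodes the helicase that threads RNA into the exosome. It stood at 62.4 and 68.9 CPM in wild-type libraries, and 72.7 and 69.4 CPM in Dis3-/- libraries. The libraries did not overlap, by a narrow margin, and the log2 fold change of 0.12 ± 0.11 did not pass (edgeR BH-adjusted p = 0.479). Wdr61 encodes the beta-propeller subunit of the SKI complex, which also belongs to the transcription-linked PAF complex. The gene (chromosome 9, 54717153 to 54734549) measured 49.4 and 30.3 CPM in wild-type libraries, and 63.8 and 60.04 CPM in Dis3-/- libraries. Both Dis3-/- libraries were higher, but the wild-type libraries lay far apart, and the log2 fold change was 0.63 ± 0.17 (edgeR BH-adjusted p = 0.0188). Without wild-type replicate 2, the lower library, the value was 0.32 (edgeR BH-adjusted p = 0.149), and without wild-type replicate 1 it was 1.03 (edgeR BH-adjusted p = 9.52e-05). Exons of Wdr61 overlap Dnaja4 on the other strand, which stood at -0.02 ± 0.21 (edgeR BH-adjusted p = 0.962). Ttc37, the scaffold subunit, and Hbs1l, whose short isoform bridges SKI and exosome, stood at -0.04 ± 0.09 and -0.09 ± 0.10, and their libraries overlapped between genotypes. Isoforms of Hbs1l are not separated in gene counts.

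CCR4-NOT is the main deadenylase of the cytoplasm. Of its 11 genes 1 rose, Rqcd1, and 1 fell, Cnot6l (9.09% each way, beside 12.7% higher and 10.2% lower of all tested genes). The median was -0.042. Cnot1, the scaffold on which the other subunits assemble, stood at 520 and 534 CPM in wild-type libraries, and 569 and 553 CPM in Dis3-/- libraries. The Dis3-/- libraries were slightly higher without overlap, and the log2 fold change of 0.09 ± 0.07 did not pass (edgeR BH-adjusted p = 0.345); with an offset for transcript length it was 0.23 and passed (edgeR BH-adjusted p = 0.0218), and on TPM values it turned below 0 (-0.021). Rqcd1, now named Cnot9, encodes the subunit that binds microRNA silencing proteins. The gene (chromosome 1, 74506036 to 74530842) measured 89.0 and 75 CPM in wild-type libraries, and 121 and 118 CPM in Dis3-/- libraries. Both Dis3-/- libraries lay well above both wild-type libraries, and the log2 fold change was 0.55 ± 0.10 (edgeR BH-adjusted p = 0.0017). Exons of Rqcd1 overlap Usp37 on the other strand, which was higher too (0.27 ± 0.08, edgeR BH-adjusted p = 0.0309); the part of shared reads was not tested.

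The 4 deadenylase subunits come as 2 paralog pairs, the EEP-type nucleases Cnot6 and Cnot6l and the DEDD-type nucleases Cnot7 and Cnot8. Cnot6l (chromosome 5, 96070333 to 96164198) measured 267 and 288 CPM in wild-type libraries, and 222 and 213 CPM in Dis3-/- libraries. The groups were clearly separated and the gene fell, with a log2 fold change of -0.35 ± 0.08 (edgeR BH-adjusted p = 0.0056); with an offset for transcript length the call ended (-0.20, edgeR BH-adjusted p = 0.0842). Cnot6 stood at 207 and 219 CPM in wild-type libraries, and 236 and 239 CPM in Dis3-/- libraries. It was higher in both Dis3-/- libraries by 0.16 ± 0.08, which did not pass (edgeR BH-adjusted p = 0.164) but did with the length offset (0.28, edgeR BH-adjusted p = 0.0193). Cnot7 had 127 and 123 against 112 and 93.7 CPM (both wild-type against both Dis3-/- libraries, replicate 1 first, here and in later values of this form). Both Dis3-/- libraries were lower, and the log2 fold change of -0.28 ± 0.10 missed the threshold (edgeR BH-adjusted p = 0.0556); it passed without Dis3-/- replicate 1 (-0.41, edgeR BH-adjusted p = 0.00514). Cnot8 had 82.8 and 76.9 against 63.0 and 71.8 CPM. Exons of Cnot7 overlap Zdhhc2 on the other strand, which was higher (1.29 ± 0.28, edgeR BH-adjusted p = 0.00428), and its part was not tested. The Cnot8 difference, -0.24 ± 0.11 on the log2 scale (edgeR BH-adjusted p = 0.119), came without overlap of libraries; Cnot7 and Cnot8 both passed on log2(TPM + 1) values (limma BH-adjusted p = 0.0264 and 0.0469).

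Per length, in TPM (transcripts per 1000000, scaled by gene length), the 4 nuclease genes summed to 391 and 385 TPM in the wild-type and to 319 and 319 TPM in the Dis3-/- libraries. The median log2 fold change of all tested genes was -0.107 on log2(TPM + 1) values, so about that much of a TPM difference is shared by the genes at large. Among CCR4-NOT genes the order of wild-type TPM ran from Cnot1 (150 ± 0.912, SD, n = 2) through Cnot7 (121 ± 4.50) and Cnot2 (103 ± 2.45) to Cnot4 (39.1 ± 2.35), Cnot11 (39.1 ± 3.17) and Cnot3 (35.0 ± 3.53). The last 3 did not differ beyond their spread. Of the remaining subunits, the structural Cnot2 and Cnot3, the ubiquitin ligase Cnot4, and Cnot10 and Cnot11 had log2 fold changes from -0.14 (Cnot4) to 0.17 (Cnot10), and 0 of these 5 passed. Cnot10 was the only one of these 5 whose libraries did not overlap.

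PAN acts on long tails: Pan2 carries the nuclease and Pan3 the tail-binding, pseudokinase part. Of the 3 genes in this group 1 fell (33.3%, beside 10.2% of all tested genes) and 0 rose (beside 12.7%), with a median of -0.137. Pan3 (chromosome 5, 147426208 to 147548501) measured 429 and 430 CPM in wild-type libraries, and 332 and 316 CPM in Dis3-/- libraries. The replicates nearly coincided within each genotype and the groups were far apart, with a log2 fold change of -0.41 ± 0.07 (edgeR BH-adjusted p = 0.00114), the smallest p among the lower members. Pan2 stood at 70.02 and 73.4 CPM in wild-type libraries, and 65.0 and 65.4 CPM in Dis3-/- libraries. It was lower without overlap (-0.14 ± 0.10) and did not pass (edgeR BH-adjusted p = 0.372). The ratio of Pan3 to Pan2 per length, a comparison chosen after the values were seen, was 5.86 and 5.60 in wild-type against 4.91 and 4.62 in Dis3-/- libraries. Parn, a separate poly(A) nuclease known for trimming small RNAs, had 73.8 and 77.0 against 79.3 and 78.0 CPM (0.06 ± 0.10, edgeR BH-adjusted p = 0.7), a narrow separation that turned below 0 on log2(TPM + 1) values (-0.049).

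Among the 4 genes whose products bring CCR4-NOT to a message, 2 fell (50%, beside 10.2% of all tested genes) and 0 rose (beside 12.7%). The median log2 fold change of these genes was -0.286. Tob2 (chromosome 15, 81848270 to 81858326) encodes an antiproliferative adaptor that links the poly(A)-binding protein to the Cnot7 and Cnot8 nucleases. It measured 163 and 180 CPM in wild-type libraries, and 128 and 127 CPM in Dis3-/- libraries. Every Dis3-/- library lay below every wild-type library, and the log2 fold change was -0.42 ± 0.09 (edgeR BH-adjusted p = 0.00298). Its paralog Tob1 had 39.8 and 41.3 against 39.2 and 55.0 CPM. Dis3-/- replicate 2 alone stood high, so the groups overlapped (0.22 ± 0.15, edgeR BH-adjusted p = 0.331); without Dis3-/- replicate 1 the value was 0.45 (edgeR BH-adjusted p = 0.0366) and without Dis3-/- replicate 2 it was -0.044 (edgeR BH-adjusted p = 0.89). Zfp36l2 (chromosome 17, 84183924 to 84187947), which encodes a zinc finger protein that binds AU-rich elements, had the highest level per length of all 43 genes (900 ± 65.9 TPM in the wild type, SD, n = 2). It measured 1225 and 1383 CPM in wild-type libraries, and 1106 and 1157 CPM in Dis3-/- libraries. It fell by a small amount, -0.20 ± 0.06 (edgeR BH-adjusted p = 0.0353), and the call ended without wild-type replicate 2 (-0.12, edgeR BH-adjusted p = 0.302) and without Dis3-/- replicate 1 (-0.17, edgeR BH-adjusted p = 0.0937). Zfp36l1, its paralog, had 58.8 and 55.1 against 38.7 and 49.4 CPM. Both Dis3-/- libraries were lower and the log2 fold change of -0.37 ± 0.13 missed the threshold (edgeR BH-adjusted p = 0.0629), which it passed without Dis3-/- replicate 2 (-0.55, edgeR BH-adjusted p = 0.0148). Tob2 and Zfp36l2 exons each overlap an annotated antisense gene on the other strand that had no row of its own in the tables.

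Removal of the cap commits a message to digestion by Xrn1. Of the 11 genes of decapping and 5′ to 3′ decay 1 rose, Dcp2, and 1 fell, Pnrc1 (median -0.009). That is 9.09% each way, beside 12.7% higher and 10.2% lower of all tested genes. Dcp2, on chromosome 18, encodes the decapping enzyme itself. It measured 96.5 and 112 CPM in wild-type libraries, and 135 and 130 CPM in Dis3-/- libraries. Both Dis3-/- libraries were higher, with a log2 fold change of 0.34 ± 0.09 (edgeR BH-adjusted p = 0.0183). The call ended without wild-type replicate 1 (0.24, edgeR BH-adjusted p = 0.184), with DESeq2 (adjusted p = 0.06) and on log2(TPM + 1) values (0.23, limma BH-adjusted p = 0.245). Pnrc1 (chromosome 4, 33245423 to 33248787) encodes a small proline-rich coregulator that binds decapping factors. It measured 111 and 128 CPM in wild-type libraries, and 96.8 and 92.4 CPM in Dis3-/- libraries. The groups did not overlap and the gene fell, with a log2 fold change of -0.34 ± 0.10 (edgeR BH-adjusted p = 0.0221), a call that ended without wild-type replicate 2 (-0.23, edgeR BH-adjusted p = 0.195), without Dis3-/- replicate 2 (-0.30, edgeR BH-adjusted p = 0.09) and with DESeq2 (adjusted p = 0.0663). Its paralog Pnrc2, which links Upf1 to Dcp1a, had 85.7 and 96.1 against 84.7 and 95.2 CPM (-0.01 ± 0.10, edgeR BH-adjusted p = 0.944), with overlapping libraries.

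Dcp1a and Dcp1b encode cofactors of Dcp2, and neither gene passed. Dcp1a had 82.8 and 77.3 against 75.6 and 83.7 CPM (-0.01 ± 0.10, edgeR BH-adjusted p = 0.963) and its libraries overlapped. Dcp1b had 28.8 and 28.3 against 22.9 and 21.1 CPM (-0.38 ± 0.16, edgeR BH-adjusted p = 0.102), lower in both Dis3-/- libraries. The scavenger enzyme gene Dcps, whose product hydrolyses the cap left after 3′ decay, had 35.7 and 34.9 against 42.9 and 43.3 CPM. Its Dis3-/- libraries were the higher ones, by 0.29 ± 0.13, and it did not pass (edgeR BH-adjusted p = 0.124); 4930581F22Rik, whose exons overlap it on the other strand, was higher as well (0.94 ± 0.20, edgeR BH-adjusted p = 0.00401), and its part was not tested. Dxo encodes a quality-control enzyme for faulty caps. It had 16.4 and 12.4 against 10.1 and 13.1 CPM, with overlapping libraries (-0.31 ± 0.24, edgeR BH-adjusted p = 0.379); its exons overlap Skiv2l on the other strand. Xrn1, the 5′ to 3′ exonuclease gene, had 56.6 and 66.2 against 55.0 and 57.7 CPM. One Dis3-/- library lay within the wild-type range, and the log2 fold change was -0.12 ± 0.12 (edgeR BH-adjusted p = 0.499). The scaffold genes Edc3, Edc4 and Patl1 had log2 fold changes of 0.00 ± 0.11, -0.01 ± 0.10 and 0.14 ± 0.11, and only the libraries of Patl1 were separate.

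Nonsense-mediated decay and termination held 4 of the 12 called genes. Of its 10 genes 3 rose (30%, beside 12.7% of all tested genes) and 1 fell (10%, beside 10.2%). The median log2 fold change was -0.105. Upf1 (chromosome 8, 70331493 to 70353423), the helicase that marks a message for decay, measured 177 and 164 CPM in wild-type libraries, and 228 and 225 CPM in Dis3-/- libraries. Both Dis3-/- libraries stood high and close together, and the log2 fold change was 0.41 ± 0.08 (edgeR BH-adjusted p = 0.00241). Gspt1 (chromosome 16, 11216240 to 11254325) encodes the release factor eRF3a, which meets Upf1 at a stop codon. It measured 211 and 204 CPM in wild-type libraries, and 267 and 259 CPM in Dis3-/- libraries. The groups were separated, with a log2 fold change of 0.34 ± 0.08 (edgeR BH-adjusted p = 0.00544), and the call ended on log2(TPM + 1) values (0.23, limma BH-adjusted p = 0.0911). Smg5 (chromosome 3, 88336259 to 88362338) encodes an adaptor that binds phosphorylated Upf1. It measured 94.4 and 96.5 CPM in wild-type libraries, and 121 and 114 CPM in Dis3-/- libraries. It was higher in both Dis3-/- libraries, 0.30 ± 0.09 (edgeR BH-adjusted p = 0.0277), and the call ended with wild-type replicate 1 left out (edgeR BH-adjusted p = 0.123), likewise wild-type replicate 2 (0.0733) and Dis3-/- replicate 1 (0.12), with DESeq2 (0.116) and on log2(TPM + 1) values (0.18, limma BH-adjusted p = 0.204). Exons of Upf1 overlap Cers1 and Gdf1 on the other strand, which did not pass the filter on low counts, and those of Gspt1 overlap 2610020C07Rik (0.19 ± 0.22, edgeR BH-adjusted p = 0.576).

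Smg6 (chromosome 11, 74925854 to 75164448) encodes the endonuclease that cuts NMD targets near the stop codon. It measured 174 and 188 CPM in wild-type libraries, and 152 and 146 CPM in Dis3-/- libraries. It was lower in both Dis3-/- libraries, -0.27 ± 0.08 (edgeR BH-adjusted p = 0.0289), opposite in direction to Upf1 and Smg5. The call ended without wild-type replicate 2 (-0.22, edgeR BH-adjusted p = 0.157), without Dis3-/- replicate 2 (-0.24, edgeR BH-adjusted p = 0.116), with DESeq2 (adjusted p = 0.066) and with an offset for transcript length (-0.15, edgeR BH-adjusted p = 0.223). Smg1, the kinase that phosphorylates Upf1, was the NMD gene with the highest level per length (128 ± 0.396 TPM in the wild type, SD, n = 2). It had 833 and 845 against 711 and 776 CPM. Its log2 fold change of -0.17 ± 0.06 missed the threshold (edgeR BH-adjusted p = 0.067), without overlap of libraries, and passed without Dis3-/- replicate 2 (-0.24, edgeR BH-adjusted p = 0.0249). Set against Upf1 per length, a ratio chosen after the values were seen, Smg1 stood at 1.36 and 1.49 in wild-type against 0.902 and 0.995 in Dis3-/- libraries. Upf3a and Upf3b, which bind the exon junction complex, were among the members of lowest level per length (22.4 and 24.3 TPM in the wild type). Upf3a had 10.7 and 13.5 against 13.3 and 7.82 CPM (-0.20 ± 0.28, edgeR BH-adjusted p = 0.657) and Upf3b 17.6 and 24.9 against 19.7 and 18.9 CPM (-0.13 ± 0.20, edgeR BH-adjusted p = 0.673). Both overlapped between genotypes, and with SEs of 0.28 and 0.20 only wide changes could have been seen at this depth. Upf2, the bridge between Upf1 and Upf3, stood at 0.09 ± 0.10, and the Smg1 partners Smg8 and Smg9 at -0.08 ± 0.14 and -0.21 ± 0.16; 0 of these 3 passed.

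**Figure D3:**
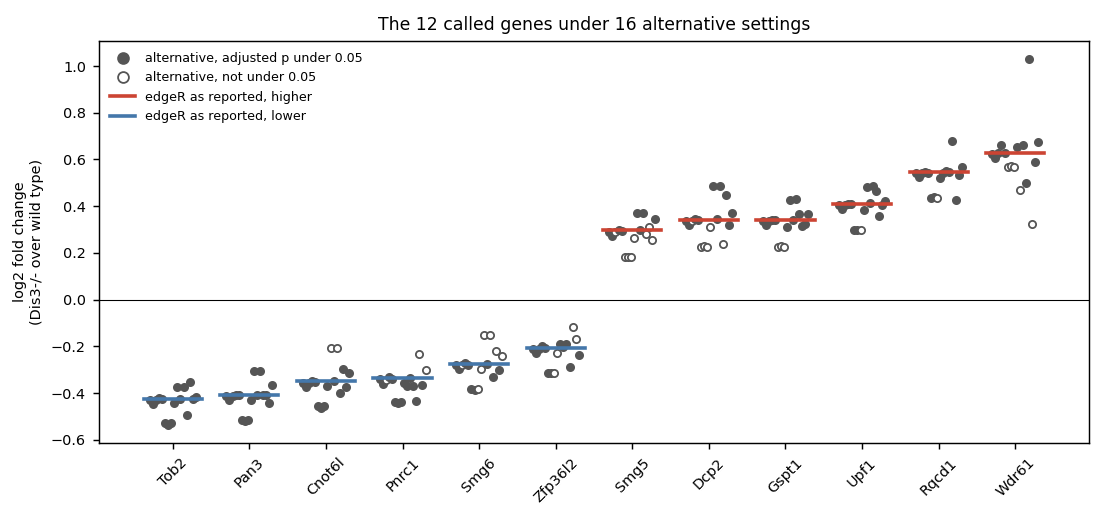
Log2 fold change (vertical axis, Dis3-/- over wild type) of the 12 called genes under the reported edgeR fit (coloured bars) and 16 alternative settings (circles, filled where the adjusted p was under 0.05). Tob2 and Pan3 are filled under all 16, the other 10 genes have open circles under at least 1, and no circle crosses 0.

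Tob2 and Pan3 were called under all 16 alternatives, in the range -0.54 to -0.35 for Tob2 and -0.52 to -0.31 for Pan3 on the log2 scale. The other 10 called genes lost their call under at least 1, Rqcd1 and Upf1 only on TPM values without a filter on low values (limma BH-adjusted p = 0.0842 and 0.0788). Wdr61 also lost it on log2(TPM + 1) values (limma BH-adjusted p = 0.0761), and Zfp36l2 and Smg6 on centred TPM values (limma BH-adjusted p = 0.0795 and 0.0617). The direction of all 12 was the same under each of the 16.

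The share of all tested genes called moved with the setting too, and the members' counts are to be read against it. DESeq2 called 8.17% of genes higher and 6.06% lower, and 4 members each way. Limma-voom called 12.7% and 10.2%, and 6 members higher and 7 lower. The length offset called 11.4% and 9.09%, and 7 members higher and 4 lower. The replicate block called 11.9% and 9.40%, and 6 members higher and 7 lower. On log2(TPM + 0.1) values 8.67% of genes were higher and 11.8% lower, and without a filter on low values 2.91% and 2.86%. Leaving out wild-type replicate 1 or 2 left 9.79% or 9.85% higher and 7.07% or 7.23% lower, and 4 members higher each time with 6 or 3 lower. Leaving out Dis3-/- replicate 1 or 2 left 10.2% or 10.5% higher and 8.39% or 7.96% lower, and 6 members each way each time. On log2(TPM + 1) values the split of called members was 2 higher and 9 lower, and that of all tested genes 1076 higher (8.79%) and 1480 lower (12.1%), against 1561 higher and 1250 lower on counts. With each library centred on the median gene, a setting added after the data were seen, TPM values called 1370 genes higher (11.2%) and 932 lower (7.61%), and 4 members higher and 4 lower.

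Paralogs were set side by side in 7 pairs, as the share of the first gene in the pair's summed TPM. Cnot6 made up 54.4% and 54.2% of the Cnot6 and Cnot6l sum in wild-type against 62.2% and 63.4% in Dis3-/- libraries. Tob1 held 30.5% and 29.2% of the Tob sum in wild-type against 35.5% and 43.8% in Dis3-/- libraries. Dcp1a made up 62.5% and 61.3% against 65.7% and 69.6% of the Dcp1 sum, and Pnrc1 56.2% and 56.8% against 53.1% and 49.0% of the Pnrc sum. In these 4 pairs the shares did not overlap between genotypes, with mean differences of 8.47, 9.79, 5.75 and -5.48 percentage points. In the other 3 pairs they overlapped. Cnot7 held 54.5% and 55.5% against 58.2% and 50.4% of its pair, Zfp36l1 5.41% and 4.54% against 4.01% and 4.85%, and Upf3a 49.6% and 46.8% against 52.3% and 40.2%. The exact 2-sided permutation test of each of the 4 separated pairs gave p = 0.333 (0.583 adjusted over the 7 pairs), the smallest p that 2 against 2 libraries can give, so no shift of a share is shown by this test.

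**Figure D4:**
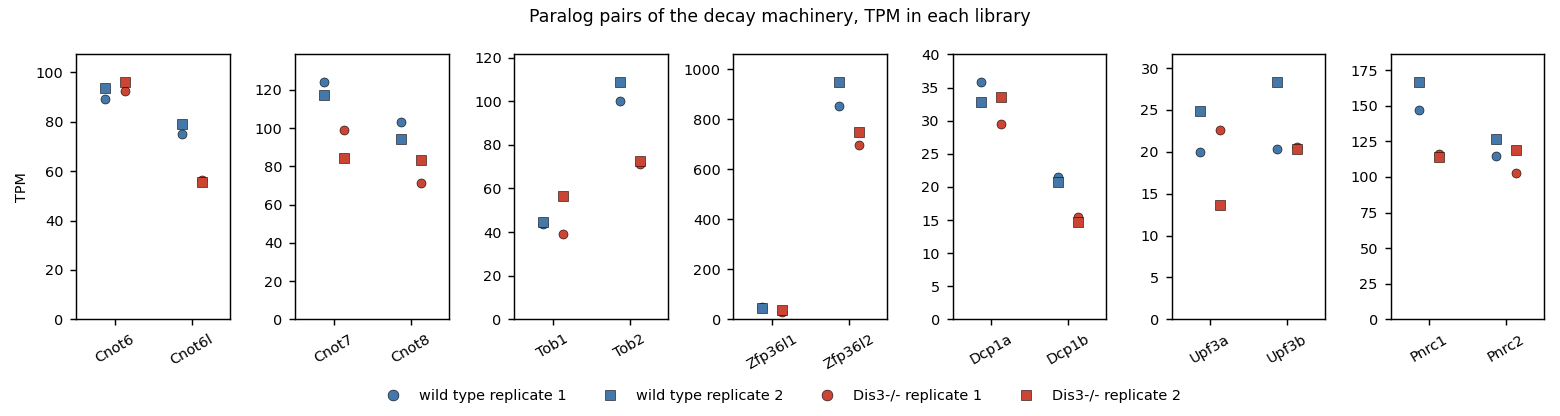
TPM (vertical axes, each from 0) of both genes of the 7 paralog pairs in each library; blue marks the wild-type and red the Dis3-/- libraries, circles replicate 1 and squares replicate 2. In Dis3-/- libraries Cnot6l, Tob2, Dcp1b and Pnrc1 have a lower mean than in the wild type (Cnot6l 77.1 to 55.9 TPM, Tob2 104 to 71.9, Dcp1b 21.1 to 15, Pnrc1 157 to 115). The means of their partners went from 91.5 to 94.2 TPM (Cnot6), 44.3 to 47.8 (Tob1), 34.3 to 31.6 (Dcp1a) and 120 to 111 (Pnrc2).

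Transcript length moved with the fold changes. Over 12120 tested genes with a union exon length in GENCODE M21, log2 fold changes were lower for longer genes (Spearman rho = -0.209, a description across genes that share libraries, and genes are not independent replicates). Over the 43 members rho was -0.0989. The 6 higher members had a median union exon length of 5048 bases (3826 to 8702) and the 6 lower members one of 7558 bases (2095 to 14955), against 4482 bases for all tested genes. Of the lower members Pan3 had the longest exons (14955 bases) and Pnrc1 the shortest (2095 bases). With the offset the value of Pan3 was -0.30 (edgeR BH-adjusted p = 0.00716). With the offset Cnot1 and Cnot6 were added upward, Wdr61 (0.47, edgeR BH-adjusted p = 0.0718), Cnot6l and Smg6 dropped out. Exons of 19 of the 43 members, 7 of the 12 called ones included, overlap an exon of another annotated gene, and the sources used here do not say if strand was used in counting.

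**Figure D5:**
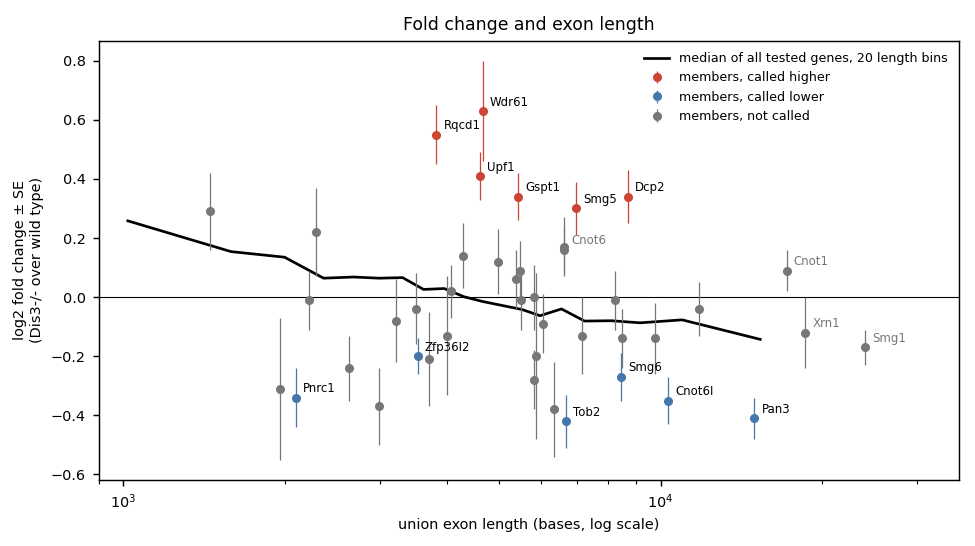
Log2 fold change with SE (vertical axis) against union exon length in bases (horizontal axis, log scale) for the 43 decay genes; red was called higher, blue lower and grey not called, and the black line is the median of all tested genes in 20 bins of length. The line slopes from 0.258 for the shortest to -0.143 for the longest genes, and the called members lie on both sides of it.

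Other genes of the same pathways were taken from 6 lists. Of 72 such genes tested 12 rose and 8 fell, 27.8% of them, beside 23.0% of all tested genes (12.7% higher and 10.2% lower). In the list of exon junction and NMD partners 4 of 13 rose (30.8%) and 0 fell (median 0.226). The ATPase gene Ruvbl1, which encodes a chaperone of the Smg1 kinase, had 43.4 and 43.7 against 65.5 and 73.7 CPM (0.68 ± 0.12, edgeR BH-adjusted p = 0.00103). Sec13, a subunit shared by coats and nuclear pores, had 45.5 and 40.8 against 64.6 and 69.4 CPM (0.63 ± 0.12, edgeR BH-adjusted p = 0.00179). Magoh, of the exon junction complex, had 20.03 and 18.6 against 34.0 and 28.0 CPM (0.68 ± 0.17, edgeR BH-adjusted p = 0.0103), and was not called without Dis3-/- replicate 1 (0.54, edgeR BH-adjusted p = 0.0673) or with the length offset (0.36, edgeR BH-adjusted p = 0.143). The fourth was Etf1, which encodes eRF1, the partner of Gspt1 (0.28 ± 0.08, edgeR BH-adjusted p = 0.0198), picked after its value was seen.

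Among decapping partners 3 of 15 rose (20%, beside 12.7% of all tested genes) and 0 fell (beside 10.2%), with a median of 0.239. Each of these calls was sensitive to a single library. They were the dinucleotide hydrolase gene Nudt2 (1.01 ± 0.31, edgeR BH-adjusted p = 0.0298), Lsm4 of the Lsm ring (0.44 ± 0.14, edgeR BH-adjusted p = 0.0382) and Eif4enif1, which binds the cap-binding protein (0.30 ± 0.10, edgeR BH-adjusted p = 0.0409). Nudt2 lost its call with wild-type replicate 1 left out (edgeR BH-adjusted p = 0.154) or either Dis3-/- replicate (0.131 and 0.0589). Lsm4 lost it without either wild-type replicate (0.147 and 0.0575) and without Dis3-/- replicate 2 (0.264), and Eif4enif1 without either wild-type replicate (0.0715 and 0.169) or Dis3-/- replicate 1 (0.244), all edgeR BH-adjusted p. DESeq2 called 0 of the 15, and so did edgeR without wild-type replicate 1. The helicase gene Ddx6, an activator of decapping, stood at -0.15 ± 0.07 (edgeR BH-adjusted p = 0.136).

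Among 12 tested deadenylation partners 2 rose and 2 fell (16.7% each way, beside 12.7% higher and 10.2% lower of all tested genes). The median was 0.001. Btg1, an antiproliferative gene of the Tob family, had 280 and 284 against 163 and 163 CPM. Its groups lay far apart, and at -0.79 ± 0.08 (edgeR BH-adjusted p = 1.65e-05) it fell more than any of the 43 members did. The poly(A)-binding protein gene Pabpc4 (0.44 ± 0.09, edgeR BH-adjusted p = 0.00337) and Pde12, a mitochondrial poly(A) nuclease gene (0.38 ± 0.11, edgeR BH-adjusted p = 0.0192), rose. Pde12 was lost in the fit that omits wild-type replicate 1 (0.32, edgeR BH-adjusted p = 0.119) and with DESeq2 (adjusted p = 0.091). Of 19 genes for proteins that recruit decay factors 1 rose (5.26%, beside 12.7% of all tested genes) and 4 fell (21.1%, beside 10.2%), with a median of -0.155. The Argonaute gene Ago4 had 46.7 and 41.9 against 19.5 and 20.8 CPM (-1.14 ± 0.15, edgeR BH-adjusted p = 0.000128), and Ago1 had 255 and 245 against 195 and 183 CPM (-0.40 ± 0.08, edgeR BH-adjusted p = 0.00251); both encode proteins that carry microRNAs. Hnrnpd, which encodes the AU-rich element binding protein AUF1, rose from 159 to 223 CPM (0.49 ± 0.08, edgeR BH-adjusted p = 0.000646).

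Gene levels of transcripts known as NMD targets were looked at too. Such levels do not separate decay from transcription, and NMD activity was not tested. By edgeR 0 of 10 were called (beside 23.0% of all tested genes), where 3 had an unadjusted p under 0.05, and DESeq2 and limma-voom called 0 as well. Over the other alternatives 0 to 4 were called lower, and 1 was called higher without wild-type replicate 2 only. The median log2 fold change was -0.084. Gadd45a had 7.49 and 8.73 against 2.86 and 5.00 CPM (-1.03 ± 0.36, edgeR BH-adjusted p = 0.0557), Ifrd1 78.1 and 90.7 against 71.7 and 64.6 CPM (-0.31 ± 0.11, edgeR BH-adjusted p = 0.0594) and Ddit3 19.7 and 22.2 against 16.3 and 13.4 CPM (-0.50 ± 0.19, edgeR BH-adjusted p = 0.0802). All 3 were lower in both Dis3-/- libraries. Of the 16 alternatives Gadd45a passed in 7, Ifrd1 in 8 and Ddit3 in 5, each time lower. Ddit3 reached -0.82 with the length offset (edgeR BH-adjusted p = 0.00765), where 9.09% of all tested genes were called lower. Gadd45a passed without Dis3-/- replicate 2 (-1.49, edgeR BH-adjusted p = 0.0356), and Ifrd1 without wild-type replicate 1 (-0.41, edgeR BH-adjusted p = 0.0336) or Dis3-/- replicate 1 (-0.38, edgeR BH-adjusted p = 0.0322). Gas5, a host gene whose spliced RNA is a classic NMD substrate, stood at -0.05 ± 0.10 (edgeR BH-adjusted p = 0.759).

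Cell division genes moved with genotype in the same libraries. All 15 genes of a list were called higher (median 1.661), beside 12.7% of all tested genes. The list was chosen with earlier results of these data known. Top2a had 144 and 154 against 433 and 452 CPM (1.57 ± 0.08), and Kif11 stood at 1.81 ± 0.10 and Ccna2 at 1.81 ± 0.13 on the log2 scale (edgeR BH-adjusted p = 4.31e-08, 1.62e-07 and 1.82e-06). Their part in the changes of the decay genes was not tested.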

How the data were processed

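RNA of 100 sorted hematopoietic stem cells per library was measured by RamDA-seq, a total RNA method with not-so-random primers, and Nextera XT libraries, per the labels' protocols. The submitters' processing notes name STAR 2.7.8a, Trim Galore 0.6.6, the mm10 build and RSEM 1.3.3; the sources used here give neither their roles nor an annotation or strand setting. The authors deposited a table of expected counts per gene, not normalized, and a table of TPM, scaled by gene length. There were 0 columns of other samples.

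Expected counts were rounded and analysed in R 4.3.3 with edgeR 4.0.16: a low-count filter by genotype (minimum count 10, minimum total 15), TMM scaling, and the 2-sided quasi-likelihood test with Benjamini-Hochberg adjustment and without covariates. Each SE was obtained by dividing a log2 fold change (absolute) by the root of its F statistic. CPM use TMM-scaled library sizes; the floor of 3 counts equals 0.432 to 0.505 CPM and no member was near it. The labels name no molecular identifiers, so precision from depth covers counting error only. Alternatives were DESeq2 1.42.0, limma 3.58.1 (voom, and log2 TPM with a pseudocount of 1 or 0.1), other scalings, no filter, a replicate block, an offset by 20 bins of the count to TPM ratio, TPM centred on the median gene (added after the data were seen), and each library left out. Symbols were matched to RefSeq GRCm38.p6 (42 members by symbol, Rqcd1 by an older one), and exons to GENCODE M21. The listed gene Noct had no matching row.

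The members, lists and rules were chosen with earlier results of these data known. Values by library are given for called members, for the main nucleases, helicases and scaffolds, and for paralog pairs; of each list up to 3 genes with the smallest p are named. Etf1, Ddx6 and Gas5 lie outside that rule and were picked after their values were seen.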

Additional observations from a re-analysis of the deposited data

How the results depend on the processing

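For most results the 16 alternatives gave the same direction: 49 of the values of the 43 members turned sign, in 16 genes, of which 0 were called. All 12 called members kept their direction, 2 of them (Tob2 and Pan3) also the call, and 7 members that were not called passed under at least 1 alternative.

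All genes called numbered 1561 higher and 1250 lower. DESeq2 gave 1000 and 742, and TPM values without a filter 479 and 471. Leaving out 1 library gave 1226 to 1319 higher and 886 to 1060 lower. Members called numbered 6 and 6. On TPM values 2 (pseudocount 1), 2 (pseudocount 0.1) and 0 (no filter) were higher. Leaving out 1 library gave 4 to 6 higher and 3 to 6 lower, the 3 without wild-type replicate 2. Of the 72 other decay factors 12 were higher and 8 lower. DESeq2 gave 7 higher, TPM values without a filter gave 2 higher and 4 lower, and leaving out 1 library gave 6 to 10 higher (6 without wild-type replicate 1) and 5 to 10 lower (5 without wild-type replicate 2). The cause of these moves was not tested.

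On log2(TPM + 1) values the turned log2 fold change was Cnot1 -0.0213, Cnot2 -0.122, Parn -0.0491, Edc3 -0.111, Upf2 -0.024 and Dis3l2 -0.0163. On log2(TPM + 0.1) values the turned log2 fold change was Cnot1 -0.0215, Cnot2 -0.123, Parn -0.0499, Edc3 -0.113, Upf2 -0.0246 and Dis3l2 -0.0166. On log2(TPM + 1) values without a filter the turned log2 fold change was Cnot1 -0.0213, Cnot2 -0.122, Parn -0.0491, Edc3 -0.111, Upf2 -0.024 and Dis3l2 -0.0163. On centred log2(TPM + 1) values the turned log2 fold change was Cnot2 -0.0365 and Edc3 -0.0259. With upper-quartile scaling the turned log2 fold change was Cnot2 -0.00709 and Edc3 -0.0186. With DESeq2 the turned log2 fold change was Edc3 -0.00264. With DESeq2 size factors in edgeR the turned log2 fold change was Edc3 -0.00225. With the replicate block the turned log2 fold change was Edc3 -0.000994. With the offset for transcript length the turned log2 fold change was Ttc37 0.0864, Dcp1a 0.115, Edc4 0.0931 and Xrn1 0.00183. With the replicate block and the length offset the turned log2 fold change was Ttc37 0.0868, Dcp1a 0.114, Edc4 0.0981 and Xrn1 0.00275.

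Leaving out 1 library at a time moved these log2 fold changes across 0: Ttc37 from -0.0753 to 0.00273, Hbs1l from -0.177 to 0.0104, Cnot2 from -0.0431 to 0.0802, Cnot11 from -0.112 to 0.0322, Tob1 from -0.044 to 0.446, Dcp1a from -0.0816 to 0.066, Edc3 from -0.106 to 0.109, Edc4 from -0.13 to 0.124, Pnrc2 from -0.0985 to 0.0719, Upf3a from -0.62 to 0.144, Upf3b from -0.368 to 0.132 and Smg8 from -0.197 to 0.0511. The differences in paralog share, in percentage points, that crossed 0 were the Cnot7 share from -4.64 to 3.21 and the Upf3a share from -8 to 4.12.

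Same-numbered replicates did not deviate together (correlation of deviations from group means -0.0293 for either number, which are equal by construction with 2 libraries a group). The labels give no pairing, and this single value cannot exclude a batch shared by libraries of the same number. With the replicate block edgeR called 1463 genes higher and 1151 lower, and 6 members higher and 7 lower, Cnot7 being added (edgeR BH-adjusted p = 0.0483). The exact permutation test of a paralog share cannot go below p = 0.333. SEs of members had a median of 0.10 and reached 0.28. Some members that were not called differed by more than their SE, among them Cnot7 (-0.28 ± 0.10), Zfp36l1 (-0.37 ± 0.13) and Smg1 (-0.17 ± 0.06). For such genes a change is neither shown nor excluded.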

Other observations

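Genes that rescue stalled ribosomes, a process coupled to SKI and Hbs1l, changed in both directions: of 9 tested 2 rose and 1 fell (33.3%, beside 23.0% of all tested genes; median 0.111). Abce1, which encodes the ATPase that splits ribosomes, had 203 and 196 against 272 and 247 CPM in the 2 wild-type and 2 Dis3-/- libraries (0.38 ± 0.08, edgeR BH-adjusted p = 0.00412). Pelo, which encodes the partner of Hbs1l in rescue, had 8.21 and 7.78 against 14.1 and 14.4 CPM (0.83 ± 0.23, edgeR BH-adjusted p = 0.0204), and lost its call whichever of the 4 libraries was left out (edgeR BH-adjusted p from 0.0518 to 0.0762). The GTPase gene Gtpbp2 was lower (-0.36 ± 0.09, edgeR BH-adjusted p = 0.0141), and not called without wild-type replicate 1 (-0.32, edgeR BH-adjusted p = 0.0806) or Dis3-/- replicate 1 (-0.26, edgeR BH-adjusted p = 0.0975).

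Of 4 genes of uridylation and cytoplasmic 3′ decay 1 fell (25%, beside 10.2% of all tested genes). The uridylyltransferase gene Zcchc6, also known as Tut7, had 262 and 273 against 210 and 184 CPM (-0.44 ± 0.08, edgeR BH-adjusted p = 0.00203), while its paralog Zcchc11 stood at -0.12 ± 0.08 (edgeR BH-adjusted p = 0.29). The nuclease gene Dis3l2 stood at 0.10 ± 0.11 (edgeR BH-adjusted p = 0.577). Dis3l, the cytoplasmic relative of Dis3, had 40.5 and 41.1 against 37.5 and 42.1 CPM (-0.03 ± 0.13, edgeR BH-adjusted p = 0.88), with overlapping libraries.

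Of 13 tested mRNAs with AU-rich elements 1 rose (7.69%, beside 12.7% of all tested genes) and 4 fell (30.8%, beside 10.2%), with a median of -0.018. The cyclin gene Ccnd1 had 51.7 and 58.4 against 108 and 96.0 CPM (0.89 ± 0.11, edgeR BH-adjusted p = 8.26e-05). Vegfa, an angiogenic factor gene, had 200 and 237 against 146 and 88.0 CPM (-0.90 ± 0.16, edgeR BH-adjusted p = 0.00152), its value was -0.58 with Dis3-/- replicate 2 left out (edgeR BH-adjusted p = 0.00131), and DESeq2 did not call it (adjusted p = 0.0845). The chemokine gene Ccl3 had 3.89 and 6.19 against 0.337 and 0.782 CPM (-3.11 ± 0.61, edgeR BH-adjusted p = 0.00246), with 27 and 39 against 2 and 5 counts.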
